A study of Homo sapiens with 24 samples.

Results

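The replication-dependent histone genes were followed through RNA-seq counts from 24 cultures of IMR90 cells with an inducible RAS, ER:HRAS(G12V). Members were the protein-coding genes whose current symbol starts with H2AC, H2BC, H3C or H4C and a number, or is H1-1 to H1-6, and which reached 10 counts in at least 6 of the 24 samples. Of the 25702 Entrez identifiers in the counts, 69 carried such a symbol and 17 of these 69 reached the minimum. The members were 1 of 6 H1 genes (H1-2), 5 of 17 H2A genes (H2AC6, H2AC7, H2AC8, H2AC11 and H2AC25), 7 of 18 H2B genes (H2BC4, H2BC5, H2BC8, H2BC9, H2BC11, H2BC12 and H2BC21), 3 of 13 H3 genes (H3C4, H3C6 and H3C10) and 1 of 15 H4 genes (H4C8). Of the 52 genes below the minimum, 9 had no count in any sample. The members nearest to the minimum were H2BC9, with 10 counts in 7 samples, and H2AC11, with 10 counts in 10 samples, and the nearest genes outside it were H4C5 in 2 samples and H2BC15 in 1 sample.

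IMR90 cells are human lung fibroblasts, and all of them had been infected with a retrovirus carrying ER:HRAS(G12V), an oncogenic RAS fused to the oestrogen receptor that 4-hydroxytamoxifen (4OHT) switches on. Each of the 4 groups held 6 biological replicates (R1 to R6) at passages 23 to 28. Growing cells carried the MSCV vector and received no agent, and shHMGA1 cells carried a miR30 hairpin named for HMGA1, a chromatin protein, and received no agent either. RIS cells (RAS-induced senescence) carried the vector and RIS+shHMGA1 cells the hairpin, both with 4OHT for 6 days. All 4 groups thus shared the RAS fusion and came from 1 cell line.

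Replication-dependent histone genes supply the core histones and linker histone H1 that package newly made DNA, and their mRNAs are best known for rising as cells enter S phase and for being destroyed when DNA synthesis stops. These short genes without introns lie in clusters, and their main transcripts end in a conserved stem-loop, bound by SLBP, in place of a poly(A) tail. Some of them also give polyadenylated transcripts that read past the stem-loop, which are known from cells that differentiate or stop dividing. Replacement histones such as H3-3B and H2AZ1 come from other genes with ordinary polyadenylated mRNAs.

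The stem-loop is shown first because the libraries were made with an mRNA kit that captures poly(A) tails, so that the counts reflect the polyadenylated part of the histone RNA and not its total. In the GENCODE annotation lifted to GRCh37, which is the hg19 assembly the reads were mapped to, 16 of the 17 members were found (H2BC8 was not). A stem of 6 pairs (G-T pairs allowed) that starts with GG and ends with CC, with a loop of 4 bases that starts with TTT, lay within 200 bases after the stop codon in 15 of these 16 members, H3C6 being the exception, and in 46 of the 48 annotated genes below the minimum. The loop was TTTC in 11 of the 15 members and TTTA in the other 4, which were the H2B genes H2BC4, H2BC5, H2BC11 and H2BC12. The stem-loops of 5 members are given here on the gene strand, with the stem and loop in capitals, 5 bases of flank in lower case and the coordinates of the capitals.
H1-2 (chr6:26055972-26055987, minus strand): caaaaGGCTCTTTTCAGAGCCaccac
H2AC11 (chr6:27101294-27101309, plus strand): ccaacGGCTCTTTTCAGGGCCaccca
H2BC12 (chr6:27114145-27114160, minus strand): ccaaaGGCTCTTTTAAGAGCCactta
H2BC21 (chr1:149857738-149857753, minus strand): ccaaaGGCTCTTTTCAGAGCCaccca
H4C8 (chr6:26285359-26285374, minus strand): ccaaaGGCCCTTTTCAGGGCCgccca

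Before the results, 2 libraries have to be described that stood apart from their groups. The first principal component of log2 CPM (counts scaled to a common library total, with TMM library sizes) held 73.9% of the variance over the samples. On it the library labelled growing R4 lay at 77.3, where the other 5 growing samples lay between -84.3 and -57.2, and the library labelled RIS R2 lay at -77.1, where the other 5 RIS samples lay between 16.8 and 62.1. The 16 S phase genes summed to 325 CPM in growing R4 and to 1056 CPM in RIS R2, whereas the sums were 1112 to 1593 CPM in the other growing samples and 282 to 381 CPM in the other RIS samples. Growing R4 lay above the other 5 growing samples in 14 of the 17 members, and RIS R2 lay below the other 5 RIS samples in 12 of 17. Both libraries were kept in their labelled groups, and each result that rests on them is given with and without them.

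Total counts ranged from 8698070 to 23103424 per sample, and members took 0.00688 to 0.0347% of them. HMGA1, the gene the hairpin is named for, was at 54.4 to 143 CPM in shHMGA1 and at 60.0 to 262 CPM in RIS+shHMGA1 samples, below the 639 to 861 CPM of growing and the 641 to 786 CPM of RIS samples. The 8 fibroblast markers summed to at least 4358 CPM in every sample, and 10 markers of epithelial, endothelial and blood cells to at most 2.78 CPM. No 2 samples of a group agreed within counting error, the smallest chi-square per degree of freedom between them being 2.89. The RNA came from bulk cultures, in which fewer cells with a transcript and less of it per cell cannot be told apart.

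The reads on histone genes were concentrated in few members. Over the 24 samples the 17 members held 59926 counts and the 52 genes below the minimum held 1248, so that 98% of the counts on the 69 genes fell on members. Members were chosen by these same counts, so that a high share on them follows from the rule. H2BC12 (18192 counts), H2AC6 (12655), H1-2 (8665) and H2BC21 (8552) together held 80.2% of the counts on members, with no division by transcript length. H4C8, the H4 member, held 1062 counts, and the H3 member with the most counts, H3C4, held 764.

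The annotation differed between members and the remaining genes. A longer transcript, meaning one that runs at least 100 bases past the stem-loop, is spliced or has a RefSeq span over 1000 bases, was annotated for 11 of the 17 members and for 9 of the 52 genes below the minimum. H2BC8, and the genes below the minimum that were not among the 48 in GENCODE, were judged by their RefSeq span alone and counted as without one. These 11 members held 47850 counts, and the other 6 members (H1-2, H2AC7, H2AC8, H2AC11, H2BC8 and H2BC9) held 12076. In H2BC21 (chromosome 1, 149856009 to 149858232), the annotated transcript runs 1729 bases past the stem-loop, and no annotated transcript ends at it. H1-2 (chromosome 6, 26055968 to 26056698) has only a transcript that ends at the stem-loop, with a polyadenylation signal, AATAAA, starting 13 bases after it. Of the 16 annotated members, 14 lie on chromosome 6 between 26055968 and 27779078, and H2AC25 and H2BC21 lie on chromosome 1.

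**Figure D1:**
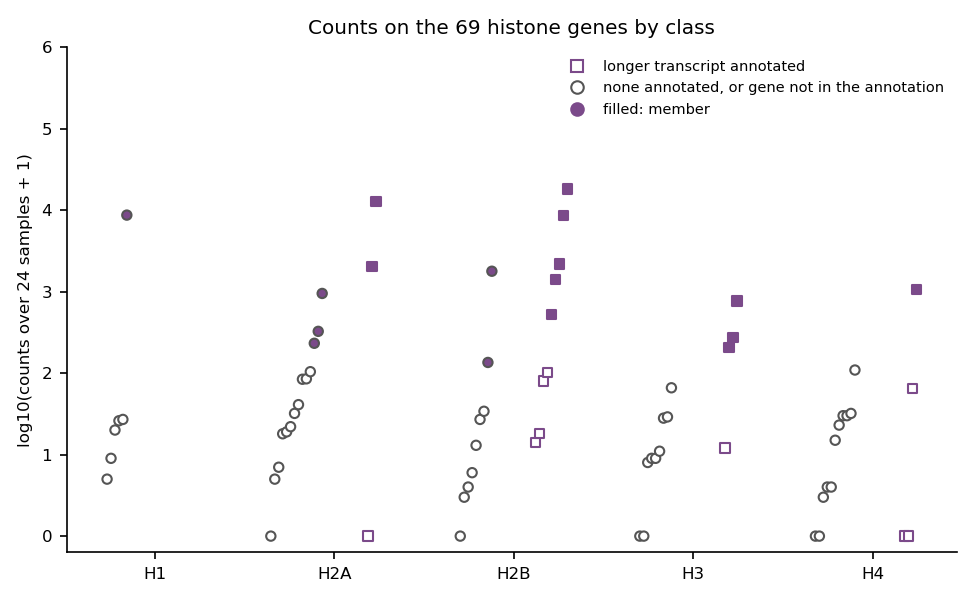
Counts summed over the 24 samples for each of the 69 histone genes, as log10 of the sum plus 1 (y axis), by histone class (x axis). Squares mark the genes with a longer annotated transcript. Circles mark the rest, including genes not in the GENCODE annotation such as H2BC8. Filled symbols mark the 17 members, among which H2BC12 has the most counts, 18192.

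Whether the histone genes changed with RAS was examined first in cells with the hairpin, since RIS+shHMGA1 and shHMGA1 hold neither of the 2 libraries that stood apart. The spread was estimated over all 24 samples, however, so that these 2 libraries entered the standard errors and p-values. Of the 16 members tested, 9 rose with RAS and were higher in RIS+shHMGA1, where 19.6% of the 13356 genes tested were called higher, and 0 were lower, where 19.5% of all genes were. To be called, a gene had to reach an FDR under 0.01 (Benjamini-Hochberg, quasi-likelihood test of edgeR) with a log2 fold change beyond 0.58 either way. At an unadjusted p under 0.05 there were 10 members, beside 67.4% of all genes. The 9 were H2AC6, H2AC8, H2AC25, H2BC4, H2BC8, H2BC12, H2BC21, H3C6 and H4C8, which are 3 H2A, 4 H2B, 1 H3 and 1 H4 gene. The H3 gene, H3C6, had 10 counts in 10 of the 12 samples with 4OHT and in 4 of the 12 without, so that it met the membership rule only through the groups in which it was higher, and its call does not speak for the H3 class. The median log2 fold change over the 16 members was 1.1, beside -0.02 over all genes tested. It includes H3C6 and also H3C10, which had 10 counts in 3 RIS, 4 RIS+shHMGA1, 1 growing and 3 shHMGA1 samples. H3C10 too was thus a member only through samples with 4OHT, whereas H2AC11 was a member only through samples without it. The medians over members in the other contrasts include these genes as well. In 8 of the 17 members every RIS+shHMGA1 sample lay above every shHMGA1 sample, which held for 20.9% of the genes tested. Fitted without the 2 libraries, the contrast again gave 9 members called higher, beside 22.5% of 13416 genes, and 0 lower, beside 21.9%. With only the samples of the contrast, 9 of the 15 members tested were called higher, beside 2794 of 12936 genes, and 0 lower, beside 2968.

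The largest rises with RAS were those of H2BC8, H2AC8 and H2AC25, 1 H2B and 2 H2A genes. H2BC8 had a lowest, median and highest value of 1.94, 2.62 and 3.25 CPM in shHMGA1 samples and of 10.6, 14.4 and 18.2 CPM in RIS+shHMGA1 samples, and the log2 fold change was 2.45 ± 0.54 (SE, Benjamini-Hochberg adjusted p = 0.00094 in the quasi-likelihood test of edgeR). H2AC8 lay at 1.26, 1.58 and 2.28 CPM without and at 7.54, 8.99 and 10.6 CPM with RAS, a log2 fold change of 2.44 ± 0.52. H2AC25 lay at 1.99, 3.50 and 5.40 CPM without and at 12.9, 16.1 and 22.1 CPM with RAS, a log2 fold change of 2.22 ± 0.58. In none of these 3 genes did the groups overlap, and the group medians differed by more than 4-fold. H2AC25 lies apart from the other members, in the small histone cluster on chromosome 1 (228622478 to 228645574, minus strand).

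A second set rose by about 2 to 3-fold. H2BC12, with the most counts of all members, lay at 44.9, 49.98 and 57.7 CPM in shHMGA1 and at 97.2, 105 and 128 CPM in RIS+shHMGA1 samples, without overlap (log2 fold change 1.1 ± 0.25, adjusted p = 0.0011 in edgeR). H2BC21 lay at 16.9, 18.4 and 22.6 CPM and at 35.8, 39.4 and 60.9 CPM, again without overlap (1.21 ± 0.26). H2AC6 rose from 27.0, 35.4 and 51.3 CPM to 68.5, 87.8 and 107 CPM (1.16 ± 0.34). The groups were also separate in H2BC4 (1.53 ± 0.31), whose highest shHMGA1 sample was at 3.88 CPM and whose lowest RIS+shHMGA1 sample was at 7.57 CPM. H4C8, the sole H4 gene among the members, lay at 2.21, 2.51 and 3.51 CPM without and at 4.51, 6.57 and 7.48 CPM with RAS (1.27 ± 0.28). H3C6, whose membership rests on the samples with 4OHT, overlapped between the groups at 0.249 to 0.990 and 0.885 to 1.91 CPM (1.11 ± 0.35, adjusted p = 0.0096 in edgeR), close to the threshold. Leaving out the samples numbered 1, 3 or 5 from the groups left 6 calls, without H2AC6, H2AC25 and H3C6. All genes called higher then numbered 1284 of 13374, 1167 of 13359 and 2107 of 13367. Leaving out those numbered 2 or 6 left 8, without H2AC6 and without H3C6 respectively, beside 2042 of 13354 and 2002 of 13365 genes.

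The remaining 7 members tested did not pass. H1-2, the linker histone gene with the most counts, lay at 25.5, 33.6 and 50.5 CPM in shHMGA1 and at 42.4, 49.0 and 71.2 CPM in RIS+shHMGA1 samples, and the groups overlapped (log2 fold change 0.49 ± 0.30). H2BC5, which shares its stem-loop with H2BC12, lay at 6.18, 8.27 and 11.3 CPM and at 9.38, 9.85 and 10.9 CPM, the smallest difference among the H2B members tested (0.24 ± 0.18). H2BC11 (0.64 ± 0.26), H3C10 (0.71 ± 0.35), H3C4 (0.53 ± 0.33) and H2AC7 (0.49 ± 0.39) had positive log2 fold changes that did not pass the test, and H2AC11, at -0.35 ± 0.27, was the one member of the 16 with a negative log2 fold change. The membership of H3C10 rests on samples with 4OHT and that of H2AC11 on samples without it, so that their signs do not speak for the members. Members with a longer annotated transcript were called in 7 of 11 cases, with log2 fold changes from 0.24 to 2.22. Those without were called in 2 of the 5 tested, with log2 fold changes from -0.35 to 2.45. The highest of these values and a call belong to H2BC8, which was not in the GENCODE annotation and was placed there by its RefSeq span alone.

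**Figure D2:**
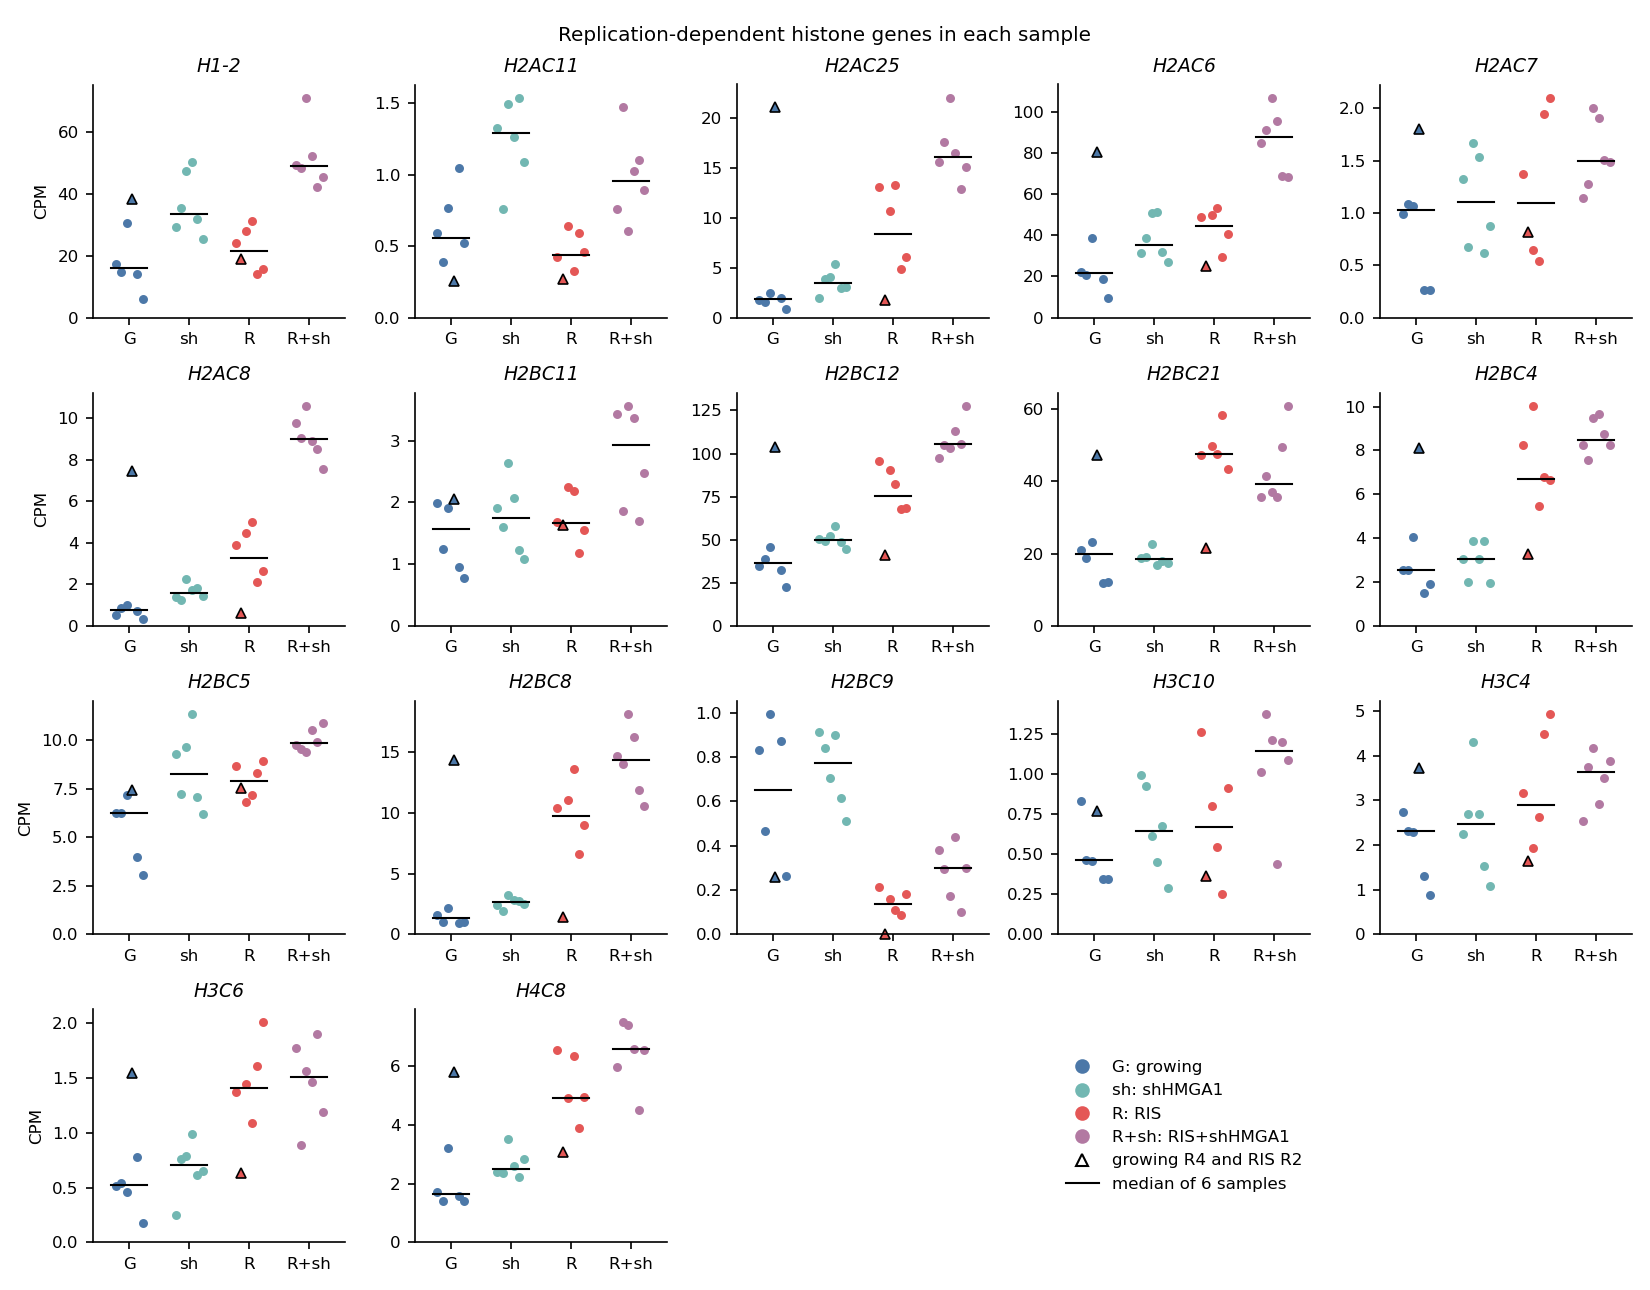
CPM on TMM library sizes (y axis, linear, a scale for each gene) of the 17 members in the 24 samples, by group (x axis). Each point is 1 sample, black lines are medians of 6 samples, and triangles mark growing R4 and RIS R2. In H2AC8, growing R4 is at 7.46 CPM and the other growing samples at 0.35 to 0.99 CPM.

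The same question in cells with the vector, RIS against growing, gave another count, and each of these groups holds 1 of the 2 libraries. With all 24 samples, 0 of the 16 members were called higher or lower by edgeR, beside 0% of all genes in each direction. At an unadjusted p under 0.05 there were 7 members, where 33% of all genes tested were under it. DESeq2 called H2BC21 and H4C8 higher, beside 272 of 14441 genes, and H2BC9 lower, beside 554. Leaving out the samples numbered 4 gave 8 calls, all higher, beside 1178 of 13383 genes, and 0 lower, beside 905. Leaving out those numbered 2 gave 1 call, also higher, beside 375 of 13354 genes, and 0 lower, beside 1459. The median log2 fold change over the members was 0.60, beside -0.01 over all genes, and the values ran from -0.39 in H2AC11 to 1.40 in H2BC8. Every member but H2BC9 overlapped between the groups, where 0.157% of all genes were separate upwards and 0.21% downwards. H2BC9 lay lower in RIS, but it was a member only through samples without 4OHT, so that its separation does not speak for the members. It had 2 counts (0.257 CPM) in growing R4 and at most 2 counts (0.211 CPM) in RIS samples. Growing R4 lay inside the range of the other 5 RIS samples in 9 of the 17 members.

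Without growing R4 and RIS R2, 9 of the 16 members were called higher in RIS, beside 19.2% of 13416 genes, and 0 were called lower. They were the same 9 genes that were called between RIS+shHMGA1 and shHMGA1. That contrast shares no sample with this one, although both were fitted with 1 estimate of the spread. The 2 libraries were left out after their values were seen, growing R4 being high and RIS R2 low in most members, which favours calls of higher in RIS. The match is thus no independent check, and H3C6, among the 9, was a member only through the samples with 4OHT. H2BC8 lay at 0.96 to 2.14 CPM in the 5 growing samples and at 6.60 to 13.6 CPM in the 5 RIS samples, a log2 fold change of 2.87 ± 0.22 (adjusted p = 1.0e-10 in edgeR). H2AC8 lay at 0.35 to 0.99 and at 2.12 to 5.02 CPM (2.41 ± 0.26), and H2AC25 at 0.87 to 2.52 and at 4.91 to 13.3 CPM (2.44 ± 0.29). H2BC12 lay at 22.8 to 45.7 and at 67.9 to 95.9 CPM (1.21 ± 0.14), H2BC21 at 11.9 to 23.1 and at 43.5 to 58.3 CPM (1.49 ± 0.17), and H4C8 at 1.39 to 3.21 and at 3.89 to 6.54 CPM (1.50 ± 0.22). In 8 members the 5 RIS samples all lay above the 5 growing samples, which held for 15.9% of the genes tested, and in H2BC9 they all lay below, beside 19.3%. H2BC9 was a member only through samples without 4OHT, and H3C6, among the 8, only through those with it. In H2AC6 the growing and RIS samples overlapped, at 9.57 to 38.8 and 29.4 to 53.2 CPM (1.01 ± 0.25).

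Growing R4 and RIS R2 themselves showed the reverse order. H2BC8 was at 14.4 CPM in growing R4 and at 1.45 CPM in RIS R2, H2AC25 at 21.1 and 1.72 CPM, and H2BC12 at 104 and 41.1 CPM. In these 3 genes growing R4 was above every RIS sample and RIS R2 was within the range of the other growing samples. Whether the 2 libraries carry the wrong label was not tested, and nothing in the labels marks them.

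**Figure D3:**
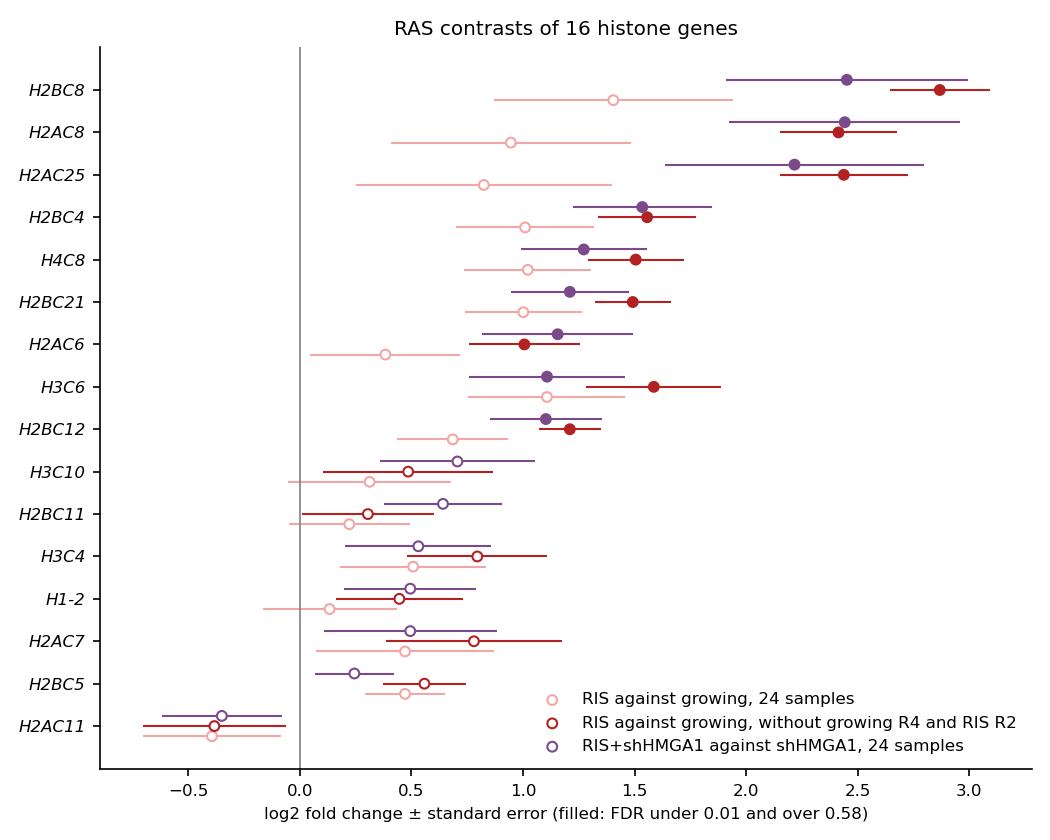
Log2 fold changes with standard errors (x axis) of the 16 members tested (y axis) for RIS against growing with all 24 samples, the same without growing R4 and RIS R2, and RIS+shHMGA1 against shHMGA1. Filled points passed the call; 0, 9 and 9 genes did so, and H2BC8 lay at 1.40, 2.87 and 2.45.

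Both conditions together were compared with growing cells in RIS+shHMGA1 against growing. Here 12 of the 16 members were called higher, beside 22% of all genes tested, and 0 were lower, beside 23.9%. At an unadjusted p under 0.05 there were 14 members, beside 71.8% of all genes. The 12 were the 9 genes above together with H1-2, H2BC5 and H2BC11, and each of the 12 was also called without growing R4 and RIS R2, when 28.3% of 13416 genes were. The median was 1.22 over the members and -0.05 over all genes. H1-2 lay at 6.18, 16.1 and 38.5 CPM in growing samples and at 42.4, 49.0 and 71.2 CPM in RIS+shHMGA1 samples, without overlap (log2 fold change 1.36 ± 0.30, adjusted p = 0.00082 in edgeR). H2BC5 lay at 3.05, 6.27 and 7.46 CPM and at 9.38, 9.85 and 10.9 CPM, also without overlap (0.81 ± 0.18). H2AC8 was the third member whose groups were separate with all samples, and such separation upwards was found in 2.73% of all genes, while no member was separate downwards, beside 3.68%. Without growing R4 and RIS R2, 12 members were separate upwards, beside 26.7% of all genes, and 0 downwards, beside 27.9%. H2AC7, H2AC11, H3C4 and H3C10 were not called, with log2 fold changes from 0.66 to 0.96. Without the samples numbered 1, 3 or 6 the count was 6, 7 and 7, beside 894 of 13374, 1334 of 13359 and 1719 of 13365 genes. H2AC25, H2BC8, H2BC11, H2BC21 and H3C6 were not called in any of these 3 fits.

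The hairpin alone was followed by smaller differences. Between shHMGA1 and growing samples, 0 of the 16 members were called by edgeR in either direction, beside 0.135% of all genes each way, 3 members had an unadjusted p under 0.05 (13.2% of all genes), and DESeq2 called 0. H1-2 had a median of 33.6 CPM in shHMGA1 and 16.1 CPM in growing samples (log2 fold change 0.86 ± 0.30, adjusted p = 0.21 in edgeR). H2AC11 had medians of 1.29 and 0.56 CPM (1.03 ± 0.27, adjusted p = 0.082). Every member overlapped between the 2 groups, where 0.749% of all genes were separate upwards and 0.554% downwards. Without the 2 libraries, H1-2 (1.13 ± 0.27) and H2AC8 (1.30 ± 0.27) were called higher, beside 1.21% of all genes. H2AC8 was then also separate upwards, beside 3.24% of all genes, and 0 members were separate downwards, beside 3.62%.

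Between RIS+shHMGA1 and RIS samples, the contrast of the hairpin in senescent cells, edgeR called 0 of the 16 members, beside 1.77% of all genes higher and 0.786% lower. At an unadjusted p under 0.05 there were 6 members, where 49.8% of all genes were under it. DESeq2 called 2 higher, H1-2 and H2AC6, beside 1027 of 12858 genes, and 0 lower, beside 540. The median was 0.59 over the members and -0.06 over all genes. H1-2 lay at 14.3, 21.5 and 31.3 CPM in RIS and at 42.4, 49.0 and 71.2 CPM in RIS+shHMGA1 samples, with a log2 fold change of 1.22 ± 0.30 whose adjusted p of 0.011 in edgeR missed the threshold. Its highest sample, RIS+shHMGA1 R3 at 71.2 CPM, stood apart from the other 5. The groups were separate in H1-2, H2AC6, H2AC8, H2BC5 and H2BC12, all higher in RIS+shHMGA1, beside 8% of all genes, and 0 members were lower, beside 5.23%. Without the 2 libraries 5 members were again separate upwards, beside 8.62% of all genes, and 0 downwards, beside 6.24%. Without the 2 libraries, and also without the samples numbered 4, H1-2, H2AC6 and H2AC8 were called higher. In the former fit their log2 fold changes were 1.18 ± 0.27, 0.95 ± 0.24 and 1.33 ± 0.20. In that fit 10% of all genes were called higher and 2.5% lower. Of 13383 genes, 1500 were called higher and 705 lower in the fit without the samples numbered 4. H2BC21, the member with the log2 fold change closest to 0, lay at 21.5, 47.5 and 58.3 CPM in RIS and at 35.8, 39.4 and 60.9 CPM in RIS+shHMGA1 samples (-0.04 ± 0.26).

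Whether the change with RAS depended on the hairpin was tested with the interaction. In edgeR 0 of the 16 members were called and 0 had an unadjusted p under 0.05, where 10.3% of all genes had one, and DESeq2 called 0. The differences between the log2 fold changes ran from -0.23 in H2BC5 to 1.50 in H2AC8, with a smallest adjusted p of 0.43. Without the 2 libraries they ran from -0.48 in H3C6 to 0.34 in H2BC11, with standard errors of 0.41 and 0.39, and 0 were called, beside 0.00745% of all genes. The standard errors of all members ran from 0.19 to 0.55 in that fit. A call at an FDR under 0.01 needs a difference of several standard errors, so that differences well beyond these errors could also be missed.

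H2BC9 and H2AC11 were the members that did not follow the rest, and they were singled out after their values were seen. H2BC9 lay at 0.26, 0.65 and 0.99 CPM in growing, 0.51, 0.77 and 0.91 CPM in shHMGA1, 0, 0.13 and 0.21 CPM in RIS and 0.10, 0.30 and 0.44 CPM in RIS+shHMGA1 samples, on 0 to 21 counts. Every RIS sample lay below every growing sample, and every RIS+shHMGA1 sample below every shHMGA1 sample, beside 22.5% of all genes in the latter contrast. It was too low for the filter of the test, and with the filter of the membership rule its log2 fold change was -1.43 ± 0.39 for RIS+shHMGA1 against shHMGA1. H2BC9 passed the membership rule through 3 growing and 4 shHMGA1 samples and 0 samples with 4OHT, so that it could only be a member by being higher without RAS. H2AC11 had 10 counts in 3 growing, 5 shHMGA1, 0 RIS and 2 RIS+shHMGA1 samples and was thus a member only through the shHMGA1 samples, the group in which it was highest, with a group median of 1.29 CPM, where the medians of the growing, RIS and RIS+shHMGA1 groups were 0.559, 0.439 and 0.958 CPM, on 2 to 25 counts.

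The promoters of H2BC4, H2BC9, H2BC12 and H2BC21 hold the octamer ATTTGCAT, the site bound by OCT1 (POU2F1) in H2B promoters, and are shown because H2BC9 differed in the opposite direction from the other 3. The RefSeq promoter windows (250 bases before to 50 after the start site, GRCh38.p14) held the octamer on either strand in 11 of the 17 members, in 15 of the 47 windows of histone genes below the minimum and in 1.8% of all 27305 windows. Among H2B genes it was found in 6 of 7 members and in 8 of 11 genes below the minimum. On either strand, the TATA box, TATAAA, was found in 11 of 17 members (12% of all windows), and the CCAAT box, CCAAT, in 16 of 17 (35.7% of all windows). The octamers of these 4 genes are given in capitals with 8 bases on each side, on the gene strand and with the GRCh37 coordinates of the printed bases.
H2BC12 (chr6:27114668-27114691, minus strand): ttcaccttATTTGCATgagaggtc
H2BC21 (chr1:149858263-149858286, minus strand): gagccctaATTTGCATaaggtggt
H2BC4 (chr6:26124262-26124285, minus strand): catacctcATTTGCATagctctgc
H2BC9 (chr6:26251785-26251808, plus strand): aagcacctATTTGCATaaaagacc

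The octamer began 46 bases before the start site in H2BC12 and H2BC21, 49 bases before it in H2BC9 and 123 bases before it in H2BC4. POU2F1 itself was not called, with a log2 fold change of 0.30 ± 0.29 for RIS+shHMGA1 against shHMGA1. It lay at 0.53 to 1.09 CPM in shHMGA1 and 0.60 to 1.48 CPM in RIS+shHMGA1 samples, on 6 to 15 counts a sample in each group. So few counts limit what this test could detect.

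Summed over the members, the medians increased from growing over shHMGA1 and RIS to RIS+shHMGA1 samples, with no test of the sum. The sums were 62.7, 116 and 345 CPM (lowest, median and highest) in growing, 138, 165 and 213 CPM in shHMGA1, 130, 246 and 277 CPM in RIS and 334, 368 and 409 CPM in RIS+shHMGA1 samples. Growing R4 gave the highest growing sum and RIS R2 the lowest RIS sum, and the other growing samples reached at most 166 CPM. Neighbours in this order overlapped, except that RIS+shHMGA1 samples lay above all RIS and shHMGA1 samples. The sum of the 7 H2B members, at 169.5 to 221 CPM in RIS+shHMGA1 samples, made up the largest part.

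The 52 genes below the minimum followed a different order. Their sums were 1.39, 3.33 and 6.94 CPM in growing, 4.43, 4.68 and 6.57 CPM in shHMGA1, 2.27, 3.72 and 5.24 CPM in RIS and 5.33, 5.85 and 7.64 CPM in RIS+shHMGA1 samples, on 16 to 88 counts a sample. The groups overlapped in each RAS contrast. The 10 H3 genes below the minimum together had 77 counts in shHMGA1 and 27 in RIS+shHMGA1 samples, with sums of 0.674 to 1.23 and 0.381 to 0.695 CPM, which overlapped. The 14 H4 genes had 68 and 111 counts, with sums of 0.738 to 1.14 and 1.40 to 2.35 CPM, which did not. Of all single genes tested, 20.9% were separate upwards in this contrast. The sums of the H1, H2A and H2B genes below the minimum overlapped, on 30 and 15, 137 and 105, and 70 and 92 counts. At these counts no single gene of the 52 could be followed.

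**Figure D4:**
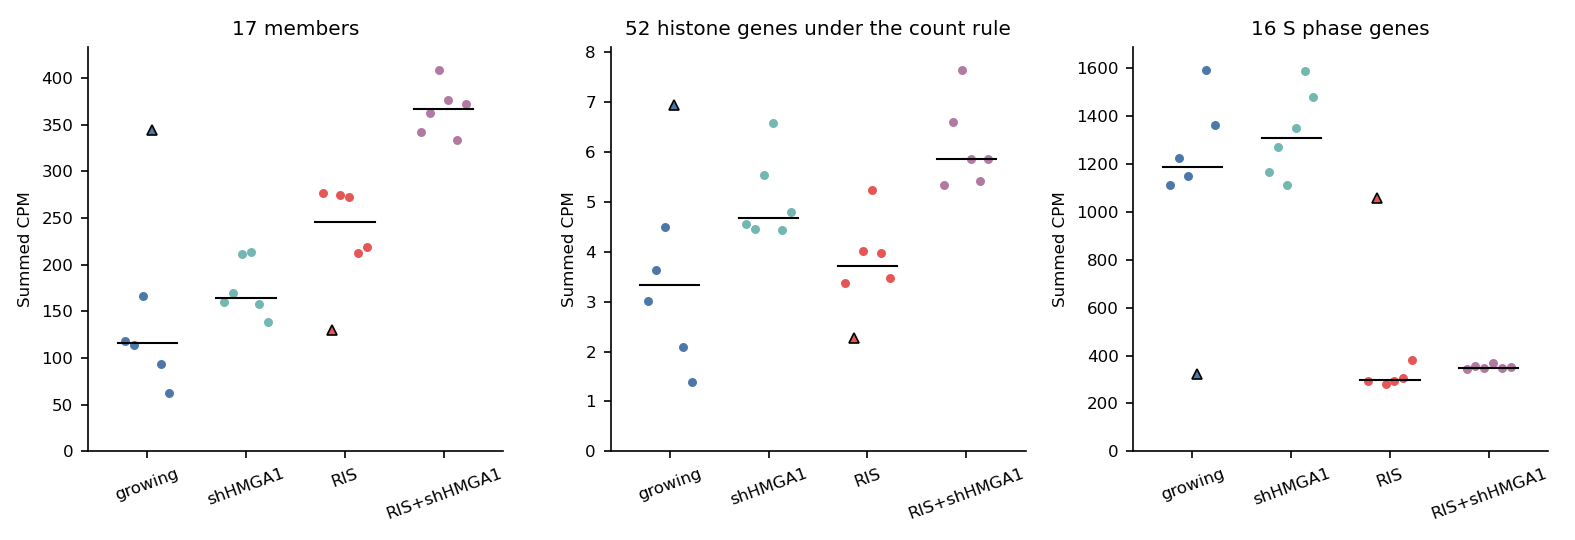
Summed CPM (y axis, linear) of the 17 members, of the 52 histone genes below the minimum and of 16 S phase genes in each sample, by group (x axis). Lines are medians of 6 samples and triangles mark growing R4 and RIS R2. With RAS the members' sums are higher and the S phase sums lower, apart from the 2 marked libraries.

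Further lists of related genes were counted in RIS+shHMGA1 against shHMGA1, where 19.6% of all genes were called higher and 19.5% lower, with no test between lists. Of the 16 S phase genes, among them RRM2 (a subunit of ribonucleotide reductase) and the MCM helicase subunits, 15 were lower in RIS+shHMGA1 than in shHMGA1 samples, 0 were higher, and the median log2 fold change was -2.26. RRM2 fell from 228, 288 and 314 CPM to 39.7, 47.5 and 60.7 CPM, by 2.53 ± 0.41 on the log2 scale. The exception was CCNE1, the gene of cyclin E1, at 0.37 ± 0.21. The S phase sums lay at 1111 to 1587 CPM in shHMGA1 and at 342 to 368 CPM in RIS+shHMGA1 samples, and the part of S phase in the histone values was not tested. The fibroblast markers fell in the same contrast, 7 of 8 being lower (all but VIM), with sums of 13810 to 19840 and 4358 to 5752 CPM, and their part in the histone values was not tested either.

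Of the 11 replacement histone genes, 6 were lower in RIS+shHMGA1 than in shHMGA1 samples and 0 were higher, with a median of -0.70. The lower genes included CENPA, the centromeric H3 (-2.75 ± 0.54), H2AX, the histone marked at DNA breaks (-1.12 ± 0.19), H2AZ2 (-1.05 ± 0.18), the linker histone gene H1-10 (-0.97 ± 0.17) and MACROH2A2 (-0.70 ± 0.20). H3-3B, which encodes H3.3, lay at 287, 319 and 348 CPM and at 332, 365 and 369 CPM and was not called (0.18 ± 0.11). H2AJ, at 0.45 ± 0.23, was not called either. Against growing, 4 of the 11 were lower in RIS+shHMGA1 samples and 0 were higher, and without growing R4 and RIS R2 5 were lower and 4 higher.

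The list for the transcription and 3′ processing of histone mRNA gave 1 gene higher and 3 lower of 13 in RIS+shHMGA1 against shHMGA1, shares below and near those over all genes (19.6 and 19.5%). LSM10, a subunit of the U7 snRNP that cuts histone mRNA after the stem-loop, was higher (1.35 ± 0.35), and LSM11, its partner in the same ring, was lower (-1.30 ± 0.30). NPAT, the coactivator of histone genes (-0.71 ± 0.21), and CASP8AP2, which is needed for their expression in S phase (-1.33 ± 0.32), were lower too. SLBP, the stem-loop binding protein, lay at 68.5, 79.3 and 92.4 CPM in shHMGA1 and at 84.6, 103 and 109 CPM in RIS+shHMGA1 samples, with overlap, and was not called (0.31 ± 0.16). Of the 11 histone chaperone genes tested, 6 were lower and 0 higher, with a median of -0.84, among them ASF1B (-3.03 ± 0.49) and the CAF-1 subunits CHAF1A (-2.06 ± 0.41) and CHAF1B (-2.93 ± 0.53), which deposit new histones behind the replication fork.

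Of the 8 members chosen from background knowledge as genes with described polyadenylated transcripts (H1-2, H2AC6, H2BC4, H2BC5, H2BC11, H2BC12, H2BC21 and H4C8), 5 were called higher in RIS+shHMGA1 against shHMGA1 and 8 in RIS+shHMGA1 against growing, beside 4 of the other 8 members tested in each of these contrasts. These contrasts share the RIS+shHMGA1 samples, and 19.6 and 22% of all genes were called higher in them. H2BC8 and H2AC8, with the largest log2 fold changes, are not on that list. How much of each gene's RNA carries a poly(A) tail was not measured here, so that a change in total histone mRNA cannot be told apart from a change in its polyadenylated share.

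**Figure D5:**
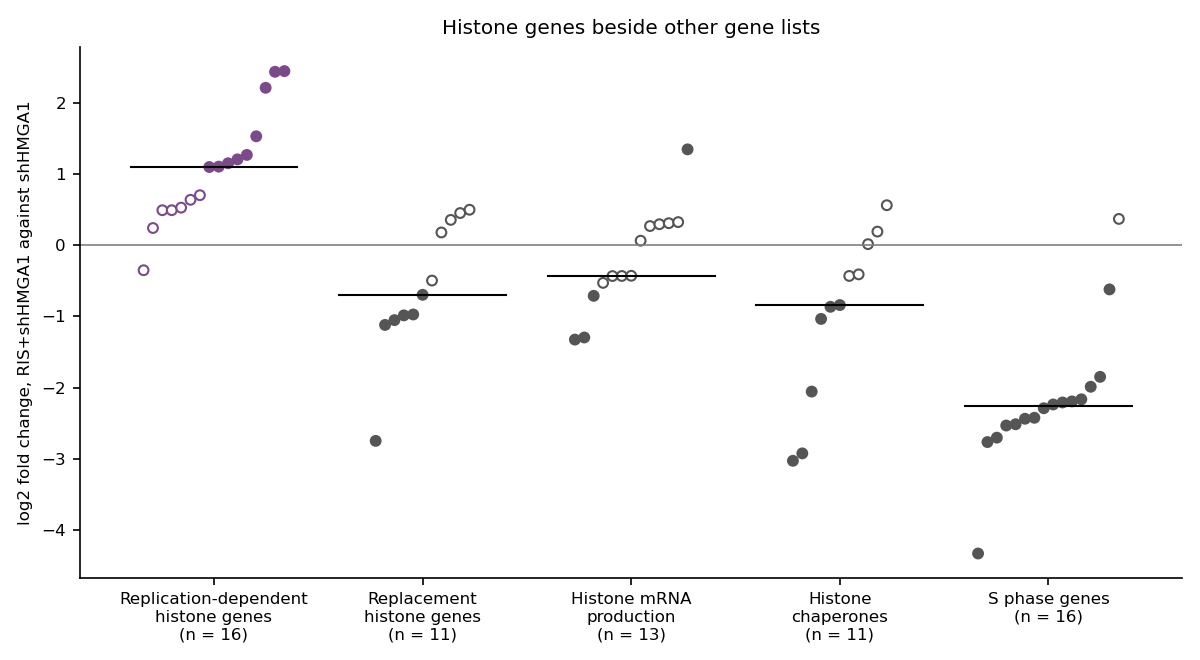
Log2 fold change of RIS+shHMGA1 against shHMGA1 (y axis) for the genes tested in each list (x axis); each point is 1 gene, filled if called, and lines are list medians. The medians are 1.1 for the histone members, -0.70 for replacement histones, -0.43 for histone mRNA production, -0.84 for chaperones and -2.26 for S phase genes.

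Some counts on members are less certain than others. Near-identical copies can share reads, and 50-base windows were compared among the 64 of the 69 genes found in GENCODE. None of the 16 members among them had over 50% of its windows in common with another gene, with 16.8% in H2BC12 as the most. Of the 48 genes below the minimum, 9 did. H2BC8 was not in the annotation, so that neither its shared windows nor its overlaps were examined. Annotated genes overlap the exons of 5 of the 16 members, on the same strand in H2AC6, H2AC7 and H3C4 and on the opposite strand in H4C8 and in H2BC4, where HFE is 1 of 2 such genes. How reads from such overlaps were assigned, and whether strand was used, is not given in the sources used here.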

How the data were processed

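RNA was sequenced from 24 cultures with a stranded poly(A) mRNA kit. The authors deposited raw read counts per Entrez gene. Per the labels' processing notes, adapters were removed with cutadapt 1.10.0 and reads aligned to hg19 with STAR 2.5.0b; the annotation, the counter's version and its strand setting are not given in the sources used here. Symbols came from the RefSeq gene table, for 23696 of 25702 identifiers. Of genes with a matching symbol, 13 pseudogenes were left out and 1 coding gene had no counts here.

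Genes were filtered with filterByExpr by group (13356 kept) and scaled by TMM, and group means over all 24 samples were fitted with edgeR 4.0.16 (limma 3.58.1, R 4.3.3). Contrasts were tested with the quasi-likelihood test, p-values were adjusted after Benjamini-Hochberg over all genes tested, and calls needed an FDR below 0.01 together with a log2 fold change beyond 0.58 in either direction; errors are standard errors. P-values measure the spread between samples labelled as biological replicates. The members, gene lists and tests were chosen with earlier results of these data known. Genes were named if they had 1 of the 3 highest mean CPM of their class, 1 of the 5 largest called changes per direction and contrast, or a place on the list of polyadenylated histone genes; H2AC7, H2AC11 and H2BC9 were named after their values were seen.

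Total counts per sample ranged from 8698070 to 23103424, which limits members with few counts. Same-numbered samples were not treated as pairs. Counts were simulated for RIS+shHMGA1 against shHMGA1 (13356 genes), with 100 genes changed 2-fold and 100 changed 4-fold. Of these, 57% of 2-fold and 82% of 4-fold changes were recovered with 1 false call, and 0 calls were made without changes. In the data 19.6% of genes were called higher and 19.5% lower, so that these rates do not describe the reported contrast. The alternatives were RLE factors, DESeq2 1.42.0, other count filters, an FDR of 0.05, a replicate block, fits of only the compared groups and leaving out each replicate number. Leaving out growing R4 and RIS R2, and the membership rule's filter, are described in the text where used.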

Additional observations from a re-analysis of the deposited data

Results flagged for a closer look

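The 14 members named by rule, the sum of the 17 members and the sum of the 52 genes below the minimum were examined in each of the 4 groups of 6 samples for a highest or lowest sample far from the rest (H2AC7, H2AC11 and H2BC9 singly were not), with the gap to the nearest sample divided by the range of the group (Dixon's ratio). Of 64 such groups, 7 exceeded its 95% critical value, where chance alone gives about 1 in 20, or 3.2.

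The library labelled growing R4 accounted for 6 of the 7. It was the highest growing sample in H2AC25 (ratio 0.918, at 21.1 CPM), H2BC8 (0.912, at 14.4 CPM), H2AC8 (0.909, at 7.46 CPM), H2BC12 (0.716, at 104 CPM) and H2BC21 (0.685, at 47.5 CPM) and in the sum of the 17 members (0.633, at 345 CPM). The contrasts with growing samples are given with and without this library. The other was H1-2 in RIS+shHMGA1 R3 (0.65, at 71.2 CPM).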

How the results depend on the processing

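Of 153 recomputed counts of called members, 133 stayed within 1.5 times the reported count. For RIS against growing, members called higher changed from 0 to 4 at an FDR of 0.05 (all genes: 473 of 13356) and to 2 with DESeq2 (272 of 14441). They changed to 9 without growing R4 and RIS R2 (2579 of 13416), a setting chosen after seeing the data. Over the fits that left out 1 replicate number they ranged from 0 to 8 (1178 of 13383 beside the 8). DESeq2 called 1 lower (554 of 14441). For shHMGA1 against growing, 2 were called higher without the 2 libraries (all genes: 162 of 13416). For RIS+shHMGA1 against growing, the 12 calls ranged from 6 to 12 over the fits that left out a replicate number (all genes: 894 of 13374 to 3717 of 13383). In the same contrast 1 gene, H2BC9, was lower with the membership filter (all genes: 3214 of 13522). For RIS+shHMGA1 against shHMGA1, the 9 higher calls ranged from 6 to 9 (all genes: 1167 of 13359 to 3046 of 13383). H2BC9 was the 1 member called lower with no filter, with the membership filter and with DESeq2, settings that test it. All genes called lower there numbered 2645 of 20418, 2624 of 13522 and 2698 of 15628. H2BC9 was a member only through samples without 4OHT. For RIS+shHMGA1 against RIS, members called higher changed from 0 to 4 at an FDR of 0.05 (all genes: 1701 of 13356). They changed to 2 with DESeq2 (1027 of 12858) or only the samples of the contrast (231 of 12658), and to 3 without the 2 libraries (1342 of 13416). Over the fits that left out a replicate number they ranged from 0 to 3 (all genes: 11 of 13367 to 1500 of 13383). Other causes were not tested.

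The replicate numbers were not taken as pairs: only 2 of 6 numbers had every correlation of deviations over 0.1, and 10 of 24 samples correlated best with a sample of their own number. With the replicate block, members called higher numbered 0 for RIS against growing, 0 for shHMGA1 against growing, 12 for RIS+shHMGA1 against growing, 10 for RIS+shHMGA1 against shHMGA1 and 4 for RIS+shHMGA1 against RIS, and 0 in the interaction. In the same order, all genes called higher numbered 1, 22, 3255, 2886, 1242 and 0 of 13356.

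Of 1150 recomputed log2 fold changes of named members, 46 changed sign, all in values called in neither setting, 39 lost and 47 gained a call. For shHMGA1 against growing, the sign changed without the 2 libraries in H2AC25 (1.01), H2BC8 (0.91), H2BC4 (0.24) and H2BC21 (0.10), with the replicate block in H2AC25 (0.15) and H2BC8 (0.13), and with DESeq2 in H2AC8 (-0.077). Over the fits that left out a replicate number, H2AC25 ranged from -0.59 to 0.85, H2AC8 from -0.20 to 1.27, H2BC21 from -0.36 to 0.11, H2BC4 from -0.42 to 0.21, H2BC8 from -0.55 to 0.88, H3C4 from -0.10 to 0.25, H3C6 from -0.086 to 0.28 and H4C8 from -0.013 to 0.50. For RIS+shHMGA1 against RIS, H3C6 was at -0.055 without the 2 libraries, and the fits without a replicate number gave -0.17 to 0.047 in H2BC21 and -0.018 to 0.30 in H3C4. In the interaction, the values without the 2 libraries were -0.21 in H2AC25, -0.11 in H2BC12, -0.28 in H2BC21, -0.024 in H2BC4, -0.42 in H2BC8, -0.25 in H3C4, -0.48 in H3C6 and -0.23 in H4C8. H3C6 was also at -0.0059 with no filter, at -0.00086 with the membership filter and at -2.4e-05 with DESeq2. Leaving out a replicate number gave interactions of -0.067 to 0.37 in H2BC21, -0.018 to 1.31 in H2BC8, -0.11 to 0.17 in H3C4, -0.22 to 0.38 in H3C6 and -0.026 to 0.42 in H4C8.

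Depth limits H2AC11, H2BC9, H3C10 and H3C6 most, with at most 25 counts a sample in H2AC11 and at most 21 in H2BC9. A poly(A) library does not measure total histone mRNA.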
